A study of Mus musculus with 18 samples.

Results

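The 10 genes described here mark the neuroectoderm and its derivatives, and were taken by symbol from the 20703 genes of the expression table to ask whether mouse embryonic stem cells (mESCs) that lack Nsd1 turn to a neural fate when they leave pluripotency. They are Sox1, Sox3, Pax6, Zic1, Hes5 and Sox11, which encode transcription factors, and Nes, Ncam1, Tubb3 and Map2, which encode cytoskeletal and cell surface proteins. All 10 were in the table and all 10 entered the tests, since no gene was filtered out. RNA was sequenced from E14 mESCs, an established mouse line, that were either WT or Nsd1-KO. The KO cells were 2 lines, Nsd1-KO-1 and Nsd1-KO-2, each grown from a single clone with a homozygous CRISPR deletion of exon 5 of Nsd1, in cells that carried a 3×Flag tag at the Nsd1 gene. Whether the WT libraries came from the tagged cells is not said in the labels. The study grew its mESCs in serum with LIF, the cytokine that sustains them, either on a feeder layer of mouse embryonic fibroblasts (MEFs) or on gelatin. Every line was collected at day 0, or at day 2 and day 4 after both LIF and MEFs had been taken away from the monolayer. With 2 biological replicates per line and day, each day has 2 WT libraries and 4 KO libraries, 18 in all. The 4 KO libraries of a day stand for only 2 independent clones.

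The neural plate forms from ectoderm where signals that drive other lineages are absent, and its cells switch on Sox1 while Sox2 and Sox3 stay on. Pax6 and Zic1 then pattern the plate, Hes5 is the effector through which Notch signalling keeps neural progenitors from differentiating, and Sox11 acts in progenitors that become neurons. Nes encodes nestin, the intermediate filament of neural progenitors, which is also found in other embryonic cells. Ncam1 encodes a neural cell adhesion molecule, Tubb3 the class III β-tubulin of neurons, and Map2 a protein that binds microtubules in dendrites.

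The deposited values are variance stabilized (VST) counts on a log2 scale, on which 8.36 stands for a count of 0 and small counts are squeezed together. The transformation could be inverted to whole counts, and normalized counts (counts divided by the size factor of the library) are given here with the VST values. Libraries held 9309874 to 23921193 counts on genes. The WT libraries of day 2, with 9309874 and 9356867, were less deep than the KO libraries of that day, with 14595828 to 19445827. Nsd1 itself ranged over days from 2111 to 3660 normalized counts in the WT libraries and from 575.4 to 1103 in the KO libraries, and the groups did not overlap. The counts of a gene cover all its exons, not the deleted one alone. Of 7 pluripotency markers 0 were called at day 0 by limma or limma-voom (4 higher and 2 lower in KO at an unadjusted p under 0.05), and their summed level was 75710 and 77420 normalized counts at the lowest and highest in WT against 75510 and 78590 in KO.

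RefSeq promoters were found for 8 of the 10 genes, all but Sox3 and Ncam1. The 250 bases before the transcription start are printed (GRCm38.p6, 5′ to 3′ on the strand of the gene) for Sox1 and Tubb3, which were called higher in KO at day 4, for Nes and Sox11, which were called lower at that day, and for Hes5, a Notch target that was close to 0 counts throughout. The windows are chr8:12395269-12395518 on the plus strand for Sox1, chr8:123411303-123411552 on the plus strand for Tubb3, chr3:87970843-87971092 on the plus strand for Nes, chr12:27342719-27342968 on the minus strand for Sox11, and chr4:154960673-154960922 on the plus strand for Hes5. Capitals mark matches, on either strand, to the GC box GGGCGG, the CCAAT box, and TGGGAA, the core bound by the Notch partner RBPJ.
Sox1: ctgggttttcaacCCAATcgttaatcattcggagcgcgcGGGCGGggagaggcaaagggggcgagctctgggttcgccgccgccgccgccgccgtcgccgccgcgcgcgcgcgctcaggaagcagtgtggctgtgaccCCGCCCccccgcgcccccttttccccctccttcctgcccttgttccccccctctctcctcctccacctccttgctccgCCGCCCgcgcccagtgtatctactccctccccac
Tubb3: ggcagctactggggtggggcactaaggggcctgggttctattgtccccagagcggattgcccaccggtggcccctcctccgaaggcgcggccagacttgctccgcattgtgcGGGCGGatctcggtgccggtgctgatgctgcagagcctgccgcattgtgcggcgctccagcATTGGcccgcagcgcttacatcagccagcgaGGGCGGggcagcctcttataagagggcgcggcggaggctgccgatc
Nes: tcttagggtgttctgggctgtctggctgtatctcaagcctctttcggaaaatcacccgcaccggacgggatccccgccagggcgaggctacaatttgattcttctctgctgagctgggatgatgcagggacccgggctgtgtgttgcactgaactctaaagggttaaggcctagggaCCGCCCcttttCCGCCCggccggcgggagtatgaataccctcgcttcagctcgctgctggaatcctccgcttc
Sox11: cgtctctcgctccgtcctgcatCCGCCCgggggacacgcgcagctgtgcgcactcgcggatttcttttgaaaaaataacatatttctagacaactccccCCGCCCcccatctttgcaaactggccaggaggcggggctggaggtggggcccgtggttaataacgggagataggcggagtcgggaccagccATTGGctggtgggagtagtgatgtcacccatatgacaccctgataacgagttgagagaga
Hes5: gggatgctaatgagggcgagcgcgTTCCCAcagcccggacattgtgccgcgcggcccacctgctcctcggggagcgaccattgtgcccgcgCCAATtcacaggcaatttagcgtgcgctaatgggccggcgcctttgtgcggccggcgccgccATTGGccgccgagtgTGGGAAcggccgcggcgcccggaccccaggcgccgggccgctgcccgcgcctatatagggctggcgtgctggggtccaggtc
The 8 genes share windows rich in CpG. Each holds at least 15 CpG dinucleotides, as do 27.3% of the 32851 promoters of the same length in the table, whose median is 6. The bound of 15 is the lowest count among the windows of these genes, so that all 8 had to pass it. Sox1 has 29 and Map2 has 34. A GC box was matched in 6 of the 8 genes (32.7% of all promoters) and a CCAAT box also in 6 (33.8%). Sox1, Tubb3, Nes and Sox11, which moved in different directions, each held a GC box. The RBPJ core was matched only in Hes5 among the 8, at 2 places, as in 2.8% of all promoters. No match overlaps another. Pax6 has 2 windows in the table, and its CCAAT box lies in only 1 of them. For that window and for Sox11 the bases after the RefSeq start were not found in a GENCODE transcript of the gene, so the start in use is less certain there. Without them a CCAAT box remains in 4 genes, Sox1, Zic1, Tubb3 and Hes5.

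KO was set against WT within each day by limma (VST values, 6 groups of genotype and day in a single fit, Benjamini-Hochberg adjusted over 20703 genes). Called here means that the adjusted p was under 0.01 while the log2 fold change exceeded 0.58 in size. The members moved in both directions at every day. At day 0, Nes, Tubb3 and Ncam1 were called higher in KO, 3 of 10 against 1.73% of all genes, and Sox11 was called lower, 1 of 10 against 0.879%. At day 2, Sox1, Tubb3 and Ncam1 were called higher, 3 of 10 against 4.01%, and Sox3, Nes and Sox11 lower, 3 of 10 against 2.37%. At day 4, Sox1 and Tubb3 were called higher, 2 of 10 against 3.67%, and Nes and Sox11 lower, 2 of 10 against 3.91%. Tubb3 was called higher and Sox11 lower at all 3 days. The 10 genes had median log2 fold changes of 0.04, −0.16 and 0.22 in order of day, beside −0.003, −0.016 and 0.000 over all genes. Fewer cells of a type and less RNA per cell cannot be told apart in these bulk samples.

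The same comparison was made by limma-voom on the recovered counts, where fold changes are not compressed. It called Map2 in addition at day 0 (4 of 10 higher against 6.43% of all genes, and 1 lower against 6.86%), Zic1 in addition at day 2 (3 higher against 10.3%, and 4 lower against 13.6%), and Sox3 and Ncam1 in addition at day 4 (4 higher against 10.9%, and 2 lower against 13%). On the count scale the median log2 fold change of the members was 0.42, −1.39 and 1.10 at the 3 days, beside −0.03, −0.14 and 0.00 over all genes, so that day 2 values by limma-voom are read against that small downward shift. Over all genes, the share of calls that were higher in KO depended on the scale. It was 66.4% on the VST values and 48.4% by limma-voom at day 0, and 62.9% on the VST values, 43.2% by limma-voom and 73.9% after centring each library on its median at day 2.

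**Figure D1:**
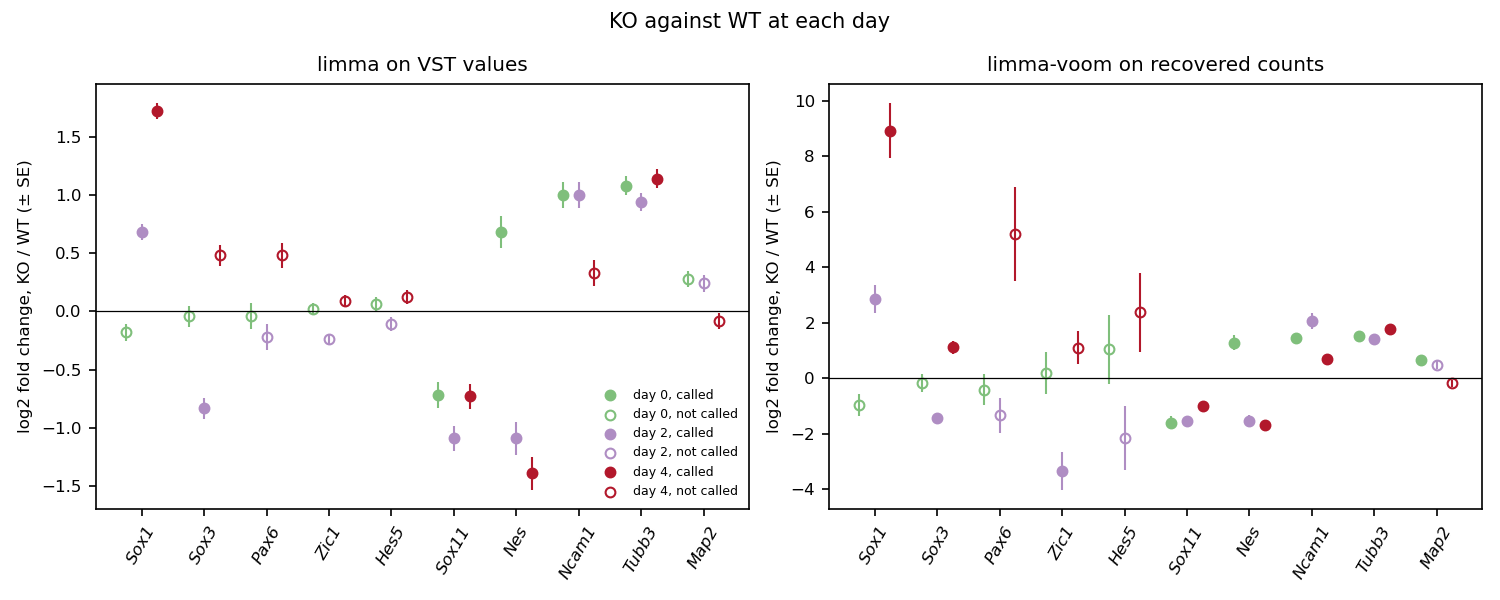
Log2 fold change of each gene in KO against WT (points) with its standard error (bars), by day, from limma on the VST values on the left and from limma-voom on the recovered counts on the right. Filled points were called. Sox1 runs from −0.18 at day 0 to 1.72 at day 4 on the VST scale, Nes from 0.68 to −1.39, and Tubb3 stays between 0.94 and 1.14.

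Sox1 had the largest difference of the 10 genes at day 4, by limma and by limma-voom, and was not called at day 0. Its product is among the earliest transcription factors of the neural plate, and it shares the SoxB1 group with Sox2 and Sox3. At day 0 it had 53.7 and 63.3 normalized counts in WT, 27.3 and 33.6 in KO-1, and 32.8 and 22.4 in KO-2. At day 2 the values were 22.8 and 30.8 in WT, 185 and 162 in KO-1, and 212 and 234 in KO-2. At day 4 they were 6.04 and 0 in WT, 505 and 520 in KO-1, and 705 and 662 in KO-2. Thus all KO libraries were below WT at day 0 and above WT at day 2 and day 4. On the VST scale the log2 fold change was −0.18 (adjusted p = 0.0697, SE 0.07) at day 0, 0.68 (adjusted p = 1.93e-07, SE 0.07) at day 2 and 1.72 (adjusted p = 8.04e-14, SE 0.07) at day 4. By limma-voom it was −0.97, 2.85 and 8.93. The last of these rests on 6 counts in 2 WT libraries against 2993 in 4 KO libraries, and the ratio of the normalized levels was 259 with a 95% interval of 119 to 705, which covers counting error only. In the WT library with 0 counts of 23921193, up to 3 counts are allowed. In WT, Sox1 had a log2 change of −0.51 from day 0 to day 4 on the VST scale (adjusted p = 3.22e-05, SE 0.08), under the fold threshold, and −5.57 by limma-voom. In KO it rose by 1.39 over the same time (adjusted p = 8.94e-14, SE 0.06), with 0.67 gained by day 2 and 0.73 from day 2 to day 4.

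Sox3, another SoxB1 gene, lies on the X chromosome and is expressed both in the epiblast and in the neural plate. It peaked at day 2 in WT. Its normalized counts at day 0 were 112 and 121 in WT, 125 and 129 in KO-1, and 79.9 and 91.6 in KO-2, and the groups overlapped. At day 2 they were 1124 and 1054 in WT, 476 and 476 in KO-1, and 368 and 304 in KO-2, all KO libraries being lower. At day 4 the order was inverted, with 189 and 222 in WT, 401 and 609 in KO-1, and 433 and 354 in KO-2. At day 2 the KO difference was −0.83 on the VST scale (adjusted p = 4.01e-07, SE 0.09). At day 4 it was 0.48 (adjusted p = 2.79e-04, SE 0.09), under the fold threshold, and limma-voom called it at 1.11 (adjusted p = 2.92e-04, SE 0.22). In WT, Sox3 rose by 1.51 from day 0 to day 2 and fell by 1.24 from day 2 to day 4. In KO it rose by 0.72 to day 2, and the difference from day 2 to day 4 was 0.07 (95% interval −0.09 to 0.23).

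Pax6, the paired box factor of forebrain, eye and spinal cord progenitors, was weakly expressed, and at day 0 and day 2 its clones stood further apart than the genotypes. Its normalized counts at day 0 were 72.1 and 57.6 in WT, 99.6 and 78.6 in KO-1, and 30.2 and 31.8 in KO-2. At day 2 they were 88.0 and 76.2 in WT, 80.0 and 77.3 in KO-1, and 16.4 and 11.6 in KO-2. At both days WT lay between the clones or beside KO-1, and the KO libraries as a group overlapped with WT. At day 4 the values were 0 and 1.89 in WT, 78.9 and 49.4 in KO-1, and 26.6 and 32.8 in KO-2, and all KO libraries were higher. The log2 fold change at day 4 was 0.48 on the VST scale (adjusted p = 2.30e-03, SE 0.11), under the fold threshold, and 5.19 by limma-voom (adjusted p = 0.0178, SE 1.69). With 221 counts in KO against 3 in WT, the ratio of normalized levels was 38.2 (95% counting interval 12.9 to 187). In WT, Pax6 fell by 0.58 on the VST scale from day 0 to day 4 (adjusted p = 1.02e-03, SE 0.13), and in KO the difference was −0.06 (95% interval −0.26 to 0.13). The call in WT was lost after quantile normalization and without WT replicate 1 of day 0.

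Zic1 and Hes5 were close to the detection limit. Zic1, a zinc finger factor of the dorsal neural tube, had 2.88 to 3.36 normalized counts in WT and 1.64 to 9.35 in KO at day 0, 16.2 and 19.6 in WT and 0 to 4.68 in KO at day 2, and 4.42 and 5.03 in WT and 8.40 to 14.6 in KO at day 4. The KO libraries were all lower at day 2 and all higher at day 4. The difference at day 2 was −0.24 on the VST scale (adjusted p = 2.84e-04, SE 0.05), under the fold threshold, and was called by limma-voom at −3.34 (adjusted p = 5.10e-04, SE 0.68). It rests on 12 and 10 counts in the WT libraries, which were less deep than the KO libraries of that day. At day 4 the difference was 0.09 (adjusted p = 0.152). Hes5, the Notch effector, had at most 9.35 normalized counts in any library, and 0 counts in both WT libraries of day 4, against 14 counts in all over the 4 KO libraries of that day. The adjusted p of Hes5 was 0.490, 0.154 and 0.163 at the 3 days, and a difference was not detectable at this depth. A transcript on the opposite strand, Gm20421, overlaps 433 bases (31.8%) of its exons.

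Sox11, a SoxC factor of neural progenitors and young neurons, was lower in every KO library at each day. Its normalized counts were 557 and 616 in WT, 238 and 175 in KO-1, and 213 and 165 in KO-2 at day 0. At day 2 they were 2170 and 2243 in WT, 782 and 827 in KO-1, and 638 and 767 in KO-2. At day 4 WT had 2327 and 2171, KO-1 1468 and 1342, and KO-2 875 and 929. Both genotypes gained Sox11 over the course. The log2 fold change in KO was −0.72 (adjusted p = 3.06e-05, SE 0.11), −1.09 and −0.73 (adjusted p = 1.08e-05, SE 0.11) at the 3 days on the VST scale, and by limma-voom −1.60 at day 0 and −1.56 at day 2. From day 0 to day 4 it rose by 1.32 in WT and by 1.31 in KO on the VST scale. With KO-1 alone the fold change of day 4 was −0.51 and no longer past the fold threshold.

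**Figure D2:**
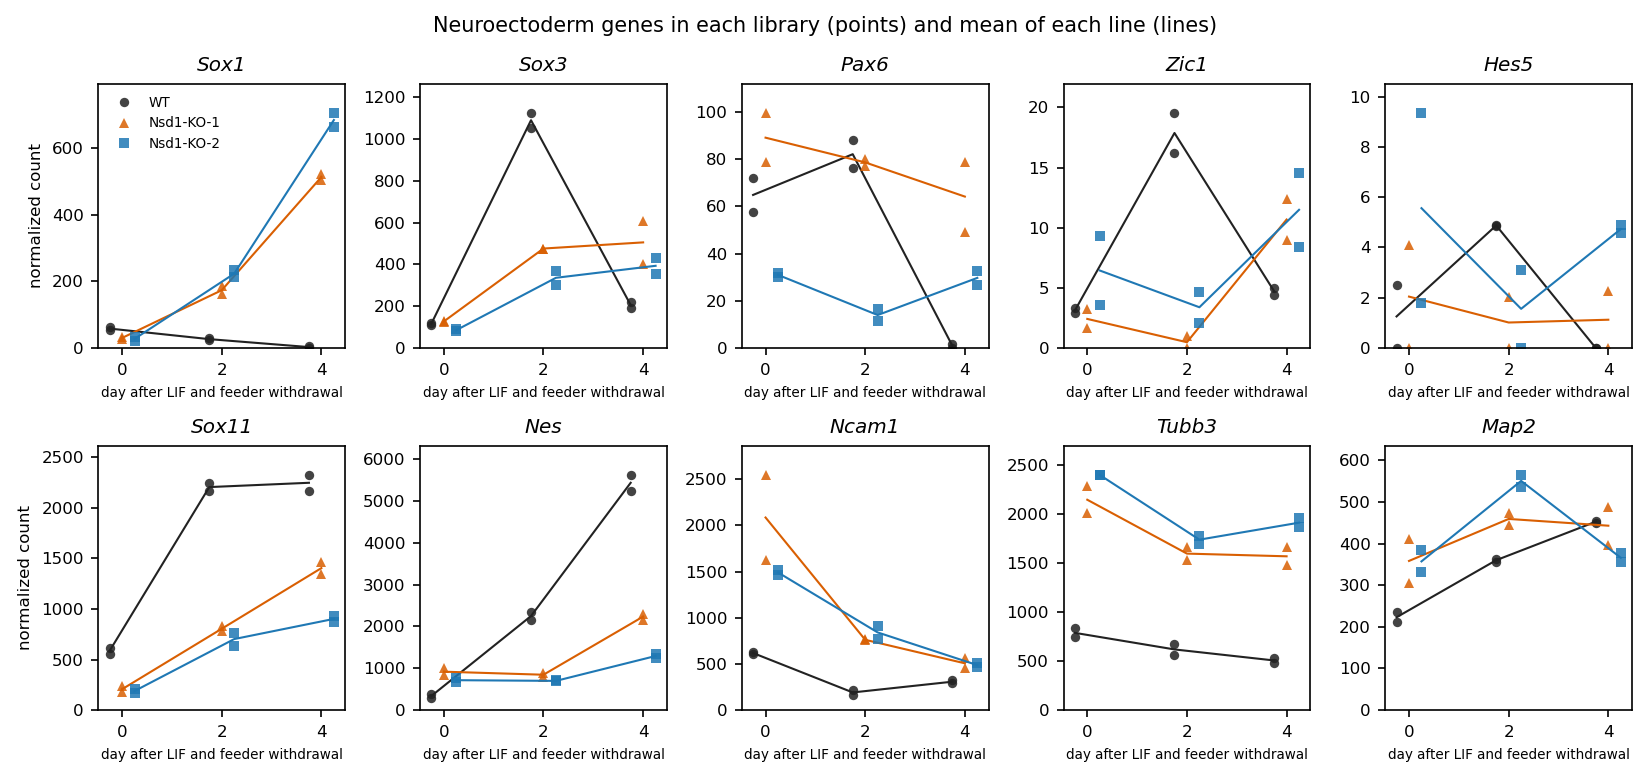
Normalized counts (linear axis) of the 10 genes by day, 1 panel per gene, with each library as a point and the mean of WT, Nsd1-KO-1 and Nsd1-KO-2 as lines. Sox1 reaches 505 to 705 in the KO libraries of day 4 and at most 6.04 in WT, Nes reaches 5247 and 5624 in WT and 1252 to 2309 in KO, and Sox3 peaks in WT at day 2.

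Nes, the progenitor filament gene, was higher in KO before differentiation and lower afterwards. At day 0 it had 294 and 380 normalized counts in WT, 1002 and 835 in KO-1, and 674 and 756 in KO-2. At day 2 it had 2161 and 2337 in WT, 801 and 890 in KO-1, and 688 and 708 in KO-2. At day 4 it had 5624 and 5247 in WT, 2309 and 2162 in KO-1, and 1252 and 1334 in KO-2. The groups did not overlap at any day. On the VST scale Nes differed by 0.68 (adjusted p = 9.95e-04, SE 0.14), then −1.09 (adjusted p = 2.92e-06, SE 0.14) and −1.39 (adjusted p = 8.30e-08, SE 0.14). Nes rose by 2.81 in WT from day 0 to day 4 and by 0.74 in KO, where the rise came after day 2, the difference from day 0 to day 2 being −0.05 (95% interval −0.29 to 0.19). The call of day 0 was lost with KO-2 alone, at 0.57 under the fold threshold, and without WT replicate 1, at 0.60 (adjusted p = 0.0315).

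Ncam1 was also higher in KO at day 0, and its difference narrowed. It had 632 and 604 normalized counts in WT, 2547 and 1624 in KO-1, and 1459 and 1522 in KO-2 at day 0. At day 2 it had 218 and 164 in WT, 755 and 767 in KO-1, and 769 and 914 in KO-2. At day 4 the counts were 322 and 293 in WT, 560 and 453 in KO-1, and 464 and 510 in KO-2. All KO libraries were above WT at each day. Its difference on the VST scale was 1.00 at day 0 (adjusted p = 1.22e-06, SE 0.11) and 1.00 at day 2 (adjusted p = 5.41e-07, SE 0.11), and 0.33 at day 4 (adjusted p = 0.0267, SE 0.11), which was not called, while limma-voom called day 4 at 0.68. In KO it fell by 1.17 from day 0 to day 4. In WT the change over the same time was −0.50, under the fold threshold. An antisense gene, Gm11149, overlaps 417 bases (4.8%) of the exons of Ncam1, and reads of the pair cannot be told apart without strand.

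Tubb3, the neuronal β-tubulin gene, was higher in KO by about the same amount at each day. Its normalized counts were 834 and 740 in WT, 2004 and 2280 in KO-1, and 2395 and 2394 in KO-2 at day 0. At day 2 they were 671 and 564 in WT, 1661 and 1526 in KO-1, and 1777 and 1694 in KO-2. At day 4 they were 479 and 532 in WT, 1473 and 1659 in KO-1, and 1952 and 1865 in KO-2. The lowest KO library of each day exceeded the highest WT library. On the VST scale Tubb3 was higher by 1.08 (adjusted p = 3.73e-09, SE 0.08), 0.94 (adjusted p = 8.88e-09, SE 0.08) and 1.14 (adjusted p = 2.53e-10, SE 0.08), and 1.52, 1.43 and 1.77 by limma-voom. The difference was thus in place before LIF and feeders were withdrawn, and over the course Tubb3 went down in both genotypes, with −0.36 in WT and −0.30 in KO from day 0 to day 4, both under the fold threshold. Map2, by contrast, differed little. It had 211 and 235 normalized counts in WT and 305 to 411 in KO at day 0, 357 and 363 in WT and 445 to 565 in KO at day 2, and 450 and 455 in WT and 355 to 488 in KO at day 4, where the groups overlapped. The difference was 0.28 (adjusted p = 2.67e-03), 0.24 (adjusted p = 5.96e-03) and −0.08 (adjusted p = 0.367) on the VST scale, in each case under the fold threshold, and limma-voom called day 0 at 0.66.

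MEFs also express some of these genes, and day 0 cells may have been on feeders. Of 8 fibroblast markers, Col1a1 (log2 fold change 0.68), Col1a2 (0.60) and Col3a1 (0.62), which encode fibrillar collagens, were called higher in KO at day 0 and Pdgfrb was called lower. The summed level of the 8 was 3061 and 3155 normalized counts in WT and 4469 to 5256 in KO, and Lum, another defining marker, was at 0 in all libraries of that day. Their part in the higher Nes, Ncam1 and Tubb3 of day 0 was not tested. At day 2 the summed level was lower in KO (567 to 725) than in WT (1013 and 1170), and at day 4 it was 565 to 1263 in KO and 2647 and 2768 in WT. In WT the sum thus rose from day 2 to day 4, after feeders had been withdrawn. At day 4 it cannot be read as a level of MEFs alone. Pdgfrb (−1.22) and Col1a1 (−1.11) were called lower in KO at day 4 and 0 higher. Of the genes named here, Tubb3 and Ncam1 lay above WT in every KO library at day 2 and day 4, and Nes below.

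Whether the KO effect itself differed between days was tested as an interaction. From day 0 to day 4 it was called for 3 of 10 genes, against 6.93% of all genes. The effect on Sox1 increased by 1.90 (adjusted p = 1.46e-11, SE 0.10), that on Nes decreased by 2.06 (adjusted p = 9.49e-08, SE 0.20) and that on Ncam1 decreased by 0.67 (adjusted p = 3.53e-03, SE 0.16). The call of Ncam1 was lost with KO-2 alone, without either WT replicate of day 0 or of day 4, and without KO-1 replicate 1 of day 0. By limma-voom Sox1 and Nes were called too, Ncam1 was not (adjusted p = 0.0331) and Map2 was (−0.85, adjusted p = 3.90e-03). On the VST scale, for Sox3 the difference of the effects was 0.52 (adjusted p = 4.93e-03) and for Map2 −0.37 (adjusted p = 5.47e-03), both under the fold threshold. For Tubb3 it was 0.06 (95% interval −0.17 to 0.30) and for Sox11 −0.01 (95% interval −0.33 to 0.30). The steps were unequal. The Nes effect moved by −1.77 from day 0 to day 2 (adjusted p = 3.20e-06, SE 0.20) and by −0.29 from day 2 to day 4 (adjusted p = 0.302). The Sox3 effect moved by −0.79 in the first step (adjusted p = 2.07e-04), which limma-voom did not call (−1.28, adjusted p = 0.0228), and by 1.31 in the second (adjusted p = 1.78e-07), which it did. The Sox1 effect moved by 0.86 and then 1.04, and both steps were called by limma-voom too. The Ncam1 effect moved by −0.67 in the second step (adjusted p = 3.52e-03, and 4.84e-03 by limma-voom). The Pax6 effect moved by 0.69 in the second step (adjusted p = 2.87e-03, SE 0.16, and 0.0106 by limma-voom, not called). The Zic1 effect in that step was 0.33 on the VST scale, under the fold threshold, and was called by limma-voom at 4.45 (adjusted p = 1.02e-03), on the few counts given above.

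Over the course as a whole, 2 of the 10 genes (Nes and Sox11) were called higher at day 4 than at day 0 in WT, against 7.68% of all genes, and 1 (Pax6) lower, against 6.16%. In KO, 4 (Sox1, Sox3, Nes and Sox11) were called higher, against 3.44%, and 1 (Ncam1) lower, against 3.06%. With KO-2 alone the rise of Nes was not called, its mean VST value going from 10.33 at day 0 to 10.89 at day 4. WT calls share their day 0 and day 4 libraries with the comparisons of genotypes. The KO cells of day 4 were also placed beside the WT cells of day 2. Sox1, Tubb3 and Ncam1 were higher in the former, by 1.41, 0.99 and 0.60 (3 of 10 against 4.08% of all genes), and Sox3 and Sox11 were lower, with differences of −0.76 and −0.71 (2 of 10 against 2.48%). For Nes the difference was −0.30 (95% interval −0.60 to −0.01, adjusted p = 0.0878), for Pax6 −0.18 and for Map2 0.08, and these groups overlapped.

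In a fit of 9 groups, the clones differed in few genes, with 0.029% of all genes called at day 0, 0.0435% at day 2 and 0.251% at day 4. Of the 10, limma called 0 at day 0 and at day 2 (3 and 5 at an unadjusted p under 0.05), and Nes was called at day 4, higher in KO-1 by 0.59 (adjusted p = 3.81e-05, SE 0.07). Sox11 was 0.43 higher in KO-1 at day 4 (adjusted p = 5.13e-04) and Pax6 0.40 higher in KO-1 at day 2 (adjusted p = 8.03e-04), both under the fold threshold. Pax6 had 78.6 ± 1.91 normalized counts in KO-1 and 13.99 ± 3.39 in KO-2 at day 2 (SD, n = 2 for each), and KO-1 was above KO-2 at the other days too, by 0.30 at day 0 (adjusted p = 0.0169) and 0.20 at day 4 (adjusted p = 0.0289). Sox1 at day 4 differed by −0.23, being higher in KO-2 (adjusted p = 0.0150).

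To compare genes with each other, normalized counts were divided by exon length, taken from another build than that of the authors. In WT, Tubb3 led at day 0 with 421 ± 35.7 normalized counts per kb (SD, n = 2), Sox3 at day 2 with 527 ± 24.3, and Nes at day 4 with 847 ± 41.6. In KO, Tubb3 led at every day, with 1214 ± 98.6, 891 ± 55.9 and 930 ± 115 (SD, n = 4). At day 4 in KO, with both clones pooled, Nes (275 ± 85.5) and Sox3 (218 ± 53.9) did not differ beyond their spread. The same held for Sox11 (139 ± 35.6) and Sox1 (124 ± 20.8). This spread includes differences between clones. Before division by length, Sox11 had 1405 ± 89.1 normalized counts in KO-1 and 902 ± 38.45 in KO-2 (SD, n = 2). Sox1 had 513 ± 10.8 and 683.5 ± 30.2. Per kb, Sox11 was above Sox1 in KO-1 and below it in KO-2. In WT at that day, Sox11 (271 ± 13.2) and Tubb3 (271 ± 19.9) were level, and Sox1 had 0.625 ± 0.884. By the means of the pooled groups, Sox1 held place 5 of the 10 in KO and place 8 in WT. Pax6, Zic1 and Hes5 stayed under 10 normalized counts per kb in each group.

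For 5 of the genes, the 3 genes with the most similar course over the 6 group means were sought among 10227 genes with at least 100 normalized counts on average, by the root mean square (RMS) difference of centred VST values. Sox1 was nearest to Ptprv (0.247), Nav1 (0.249) and Ddx4 (0.253), beside a range of 1.72 for Sox1 itself. For Sox3 (range 1.55) they were Gstt2 (0.140), Snrpn (0.157) and Cxcl12 (0.173). On this VST scale, Pax6 (range 0.66) was nearest to Heatr1 (0.056), Upf3b (0.063) and Actr3b (0.068). For Nes (range 2.81) they included Zyx (0.231) and Unc5b (0.273), and for Ncam1 (range 1.77) Dock5 (0.129), Aff1 (0.143) and Irak3 (0.159). The ranges of Pax6 and Sox1 are compressed, since small counts are squeezed together. The WT means of Pax6 were 82.1 (day 2) and 0.947 (day 4), with a limma-voom change of −6.18, while Heatr1 averaged 6021. The search thus does not show that these 2 genes had similar fold changes. Sox1 had a WT mean of 3.02 at day 4. The KO means of Pax6 also pool clones that differed.

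Other genes of neural development were read from lists. In KO, limma called 1.73% of all genes higher and 0.879% lower at day 0. The shares were 4.01% and 2.37% at day 2, and 3.67% and 3.91% at day 4. By limma-voom they were 6.43% and 6.86%, 10.3% and 13.6%, and 10.9% and 13%, in order of day. Of 22 transcription factors of the early neural plate and brain, Zic2, Zic5 and En2 were called higher in KO at day 0 and 0 lower (0 by limma-voom, 4 at an unadjusted p under 0.05). At day 2, those called higher included Sox2, Sox21, Gbx2 and Sall3, and Otx2 and Pou3f1, factors of the epiblast and anterior neural plate, lower. At day 4, Sox2, Sox21, Gbx2 and En2 were called higher and 0 lower (1 by limma-voom, 4 at an unadjusted p under 0.05). Sox2, which serves pluripotency as well as the neural plate and is also in the pluripotency list, averaged 234.9 ± 25.01 normalized counts in the WT libraries (SD, n = 2) at day 4 and 4293 ± 198 in the KO libraries (SD, n = 4), which differed by 2.72 on the VST scale (adjusted p = 1.45e-18, SE 0.06). Gbx2, a factor of the hindbrain border that is also expressed in mESCs, had 62.5 ± 9.81 and 319 ± 95.3, and Sox21 5.23 ± 1.14 and 95.9 ± 10.3. The median log2 fold change of the list was 0.01, 0.03 and 0.12 at the 3 days on the VST scale. By limma-voom, where small counts are not squeezed together, it was 0.05, −0.10 and 1.39. At day 4 limma-voom called 6 higher and 1 lower. The higher ones included Lhx2 (3.51), with 4.28 ± 2.48 normalized counts in WT and 47.7 ± 16.6 in KO. The lower one was Zfp521 (−2.75, adjusted p = 4.23e-06), with 106.9 ± 8.26 in WT and 16.8 ± 7.77 in KO.

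In the Notch pathway, 2 of 17 genes were called higher at day 0 (the receptor Notch1 and the ligand Jag1) and 1 lower (the effector Hes1). At day 2, 6 were called higher, namely Notch1, Notch3, Dll1, Jag1, Hes6 and Rbpj, and 0 lower, with a median of 0.40 (1 lower by limma-voom, and 2 at an unadjusted p under 0.05). At day 4, Rbpj (1757 ± 4.52 normalized counts in WT and 4379 ± 286 in KO, log2 fold change 1.08), Notch3 (0.82) and Hes6 (0.71) were called higher and Hes1 lower, with a median of −0.04. Rbpj encodes the DNA-binding partner of Notch, Notch3 a receptor, and Hes6 a Hes family protein. The limma-voom medians were 0.41, 0.70 and −0.07. At day 4 limma-voom called 6 higher and 3 lower. The higher ones included Hes3 (6.74), with 0 counts in WT and 41.9 ± 9.78 normalized counts in KO. The lower ones were Hes1 (−1.25), Dll3 (−0.95) and Hey2 (−2.86), the last with 29.2 ± 1.51 in WT and 4.05 ± 2.26 in KO. Hes5, which belongs to the same pathway, stayed at or under 10 counts in every library.

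Of 17 proneural and neuronal fate factors, 14 were in the table. Neurod1 was called lower at day 0, 0 were called at day 2 (2 lower by limma-voom, and 1 higher and 6 lower at an unadjusted p under 0.05), and at day 4 Sox12 was called higher (754 ± 26.8 in WT and 1771 ± 188 in KO, log2 fold change 0.84, adjusted p = 3.96e-09) and Isl1 lower (222 ± 7.03 and 6.12 ± 3.65, −0.97, adjusted p = 1.98e-13). Sox12 is a SoxC gene like Sox11, which moved the other way. Isl1 is a factor of motor neurons and also of heart and pancreas progenitors. The list median was −0.05, −0.11 and 0.06 on the VST scale, and −0.66, −1.26 and 1.28 by limma-voom. Of 12 radial glia and progenitor genes, 2 were called higher and 1 lower at day 0, 2 and 2 at day 2, and 0 and 3 at day 4 (1 higher by limma-voom, 4 at an unadjusted p under 0.05). The 3 lower genes were Hmga2 (−2.65), Vim (−1.93) and Cdh2 (−0.76), which are not limited to neural cells. By limma-voom 4 were called lower at day 4, with Fabp7 in addition (−2.39, adjusted p = 2.98e-03), and Nrcam higher (1.14). Fabp7 had 30.4 ± 5.44 normalized counts in WT and 7.70 ± 6.54 in KO. Cdh2, the gene of N-cadherin, was called higher in KO at day 0 and day 2 and lower at day 4, and Vim higher at day 2.

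Of 21 neuronal genes, 20 were in the table. They were called in both directions, 2 higher and 4 lower at day 0, 7 and 2 at day 2, and 4 and 4 at day 4, with medians of −0.01, −0.04 and −0.03. By limma-voom the medians were 0.01, −0.34 and −0.03. On the VST scale, the genes with the largest fold changes at day 4 were Ina, which encodes α-internexin, a neuronal filament (534 ± 31.4 in WT and 3020 ± 40.9 in KO, log2 fold change 1.74, adjusted p = 2.65e-15), Crmp1 (1.31), which encodes a collapsin response mediator, and Map1b (1.23), whose product binds microtubules. By limma-voom the order differed, since Cntn2 (−2.36), Elavl3 (2.28) and Nefl (−1.94) exceeded Crmp1 (1.90) and Map1b (1.43) in size. Ina and Dpysl3 were called higher at all 3 days. Gap43, the gene of a growth cone protein, was called lower at all 3, and the neurofilament gene Nefm at day 2 and day 4. Thus Tubb3 was joined by some cytoskeletal genes of the list and not by others.

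**Figure D3:**
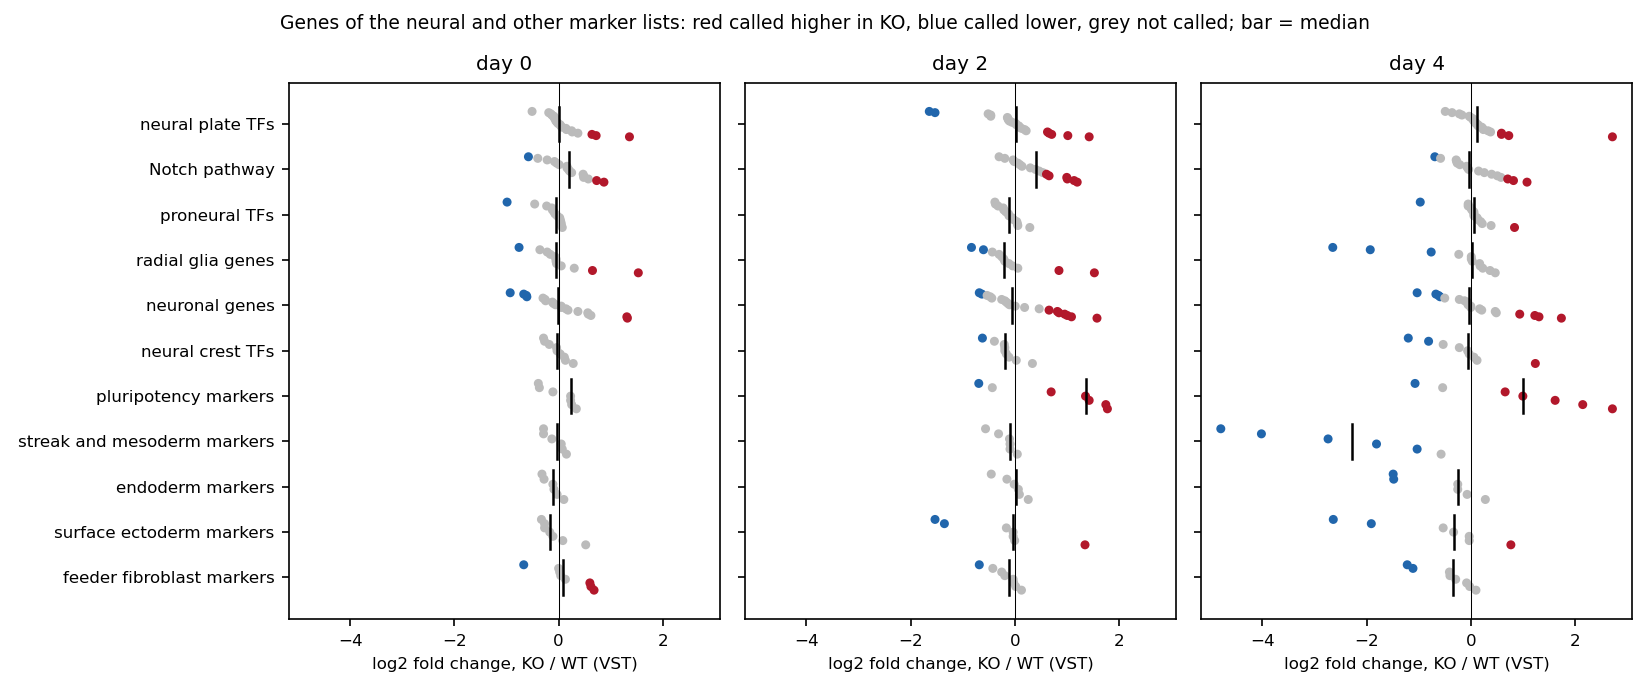
Log2 fold change (KO against WT, VST scale) of each gene of the neural lists and of lists for other cell types at day 0, day 2 and day 4, with the list median as a bar. Red points were called higher in KO, blue points lower and grey points neither. The neural lists hold red and blue points at most days with medians between −0.20 and 0.40, and the streak and mesoderm list has its median at −2.28 at day 4.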

How the data were processed

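Per the labels and the methods of the study, the authors trimmed reads with Trim Galore 0.6.7, aligned them to mm39 with STAR 2.7.11a, counted them on exons with featureCounts 2.0.6, removed genes of low average count and transformed the counts with DESeq2 1.42.0. The deposited values are these VST values on a log2 scale, not divided by length. The kit of the labels does not mark strand. Inverting the transformation gave whole counts (within 0.01) for 100% of values. Of the counts from 1 to 20, 74.9% are even, for an unknown reason, so counting intervals may be too narrow. Replicates are called biological in the study, and p-values measure the spread between these libraries.

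The main test was limma 3.58.1 (R 4.3.3) with a trended prior variance. limma-voom used the size factors of the authors, or TMM scaling. No other test was run on the recovered counts. The steps were tested on simulated data. The alternatives were each day alone, each clone alone, a filter at the 25th percentile, a replicate block, other normalizations, limma-voom, looser thresholds, and each library left out. The main fit did not pair libraries by replicate number, as no shared culture or batch is stated.

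The members and lists were chosen with earlier results of these data known. All members are named. Of each list, the text gives values for the 3 largest changes of day 4 among called genes whose groups did not overlap, and other genes of the lists were named after their values were seen. Some genes are not reported here. Exon lengths and overlaps came from GENCODE M21 on GRCm38. Figures used Python 3.11.15 with pandas 2.3.3 and matplotlib 3.10.9.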

Additional observations from a re-analysis of the deposited data

Results flagged for a closer look

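In 2 groups of 4 KO libraries, a single library of Ncam1 lay apart from the other 3, relative to how close these lay to each other. One was a KO-1 library of day 0, with 2547 normalized counts beside 1624, 1459 and 1522. The other was a KO-2 library of day 2, with 913.6 beside 754.7, 767.4 and 768.5, a small difference in level. Of 30 groups of members and days examined in this way, chance alone flags about 1 in 20.

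For 3 genes the effect of KO differed between day 4 and day 0 by the interaction test of limma over all genes. The differences were 1.90 for Sox1, −2.06 for Nes and −0.67 for Ncam1. The call of Ncam1 was lost with KO-2 alone, by limma-voom, without either WT replicate of day 0 or of day 4, and without KO-1 replicate 1 of day 0, so that 2 to 3 genes were called with a library left out.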

How the results depend on the processing

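Of the fold changes of KO against WT for the 10 genes, 277 values under alternatives stayed on the same side of the threshold with the same direction, 14 newly passed it, 3 lost it and 3 changed sign. Those that changed sign were uncalled values near 0 at day 0 with KO-1 alone, Sox3 at 0.04, Pax6 at 0.11 and Zic1 at −0.02. With a library left out, 536 were the same, 1 lost its call, and 3 changed sign, all at day 0, where Pax6 ranged from −0.11 to 0.01 (0.00 without KO-2 replicate 2) and Zic1 from −0.01 to 0.04. Hes5 gave no value under the filter. The members called lower in KO at day 4 were 1 (Nes) in place of 2 with each day fitted alone, where Sox11 had an adjusted p of 0.0134, and with KO-1 alone. Those called higher in KO at day 4 were 4 in place of 2 by limma-voom with either scaling, and 5 at an adjusted p under 0.05 with no fold minimum. Members lower in WT at day 4 than at day 0 were 1 (Pax6) in the fit as reported, 0 after quantile normalization, 4 (Ncam1, Pax6, Sox1 and Tubb3) by limma-voom with either scaling and at the looser threshold, and 0 to 1 with a library left out, 0 being without WT day 0 replicate 1. At the looser threshold, 6 members in place of 3 had an effect that differed between day 4 and day 0, 4 in place of 2 were higher in WT at day 4 than at day 0, and 2 in place of 1 were lower in KO. The cause of these differences was not tested. Over all genes, 541, 1321 and 1569 were called at the 3 days, 2752, 4949 and 4957 by limma-voom, and 6149, 9515 and 7700 at the looser threshold.

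With a replicate block, 3 members were called higher and 1 lower at day 0, 3 and 3 at day 2, and 2 and 2 at day 4, and no call of a member changed. Replicate numbers share no stated culture or batch. The correlation of same-numbered deviations over 36 pairs of groups averaged −0.0476 (−0.612 to 0.636) and exceeded 0.1 in 13. These pairs include groups of different days, so the average cannot decide whether libraries were paired within a day. Depth limits Hes5, Zic1, and the WT values of Sox1 and Pax6 at day 4. The KO libraries come from 2 clones, so that effects of the deletion and of single clones cannot be told apart where the clones differ, as in Pax6. Both clones were made in tagged cells, and whether the WT cells were tagged is not said. Where the clones agree, an effect of the deletion thus cannot be told apart from a difference between the starting cells.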

Other observations

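Markers of other lineages were read from lists, to be set beside the shares of all genes given with the neural lists. Of 6 primitive streak and mesoderm markers, limma called 0 at day 0 and at day 2 (0 and 1 by limma-voom, 4 and 2 at an unadjusted p under 0.05), and 5 were called lower in KO at day 4. T, the brachyury gene, averaged 16250 ± 273 normalized counts in the WT libraries (SD, n = 2) of day 4 and 139.6 ± 90.4 in KO (SD, n = 4), and its log2 fold change was −4.80, and Mixl1 and Eomes had −4.02 and −2.74. Of 6 endoderm markers, Gata4 (−1.49) and Gata6 (−1.48) were called lower at day 4, and by limma-voom 4 were called lower and 0 higher. Foxa2 went the other way in every KO library of day 4, with means of 15.5 normalized counts in WT and 59.2 in KO. Its log2 fold change by limma was 0.28 (adjusted p = 0.005, SE 0.07), under the fold threshold. Of 7 surface ectoderm markers, the keratin genes Krt8 (−2.64) and Krt18 (−1.91) were called lower and Tfap2c (0.77) higher at day 4. Of 7 pluripotency markers, Nanog, Sox2, Zfp42, Klf4 and Esrrb were called higher in KO at both day 2 and day 4, with Esrrb at 2.15 and Zfp42 at 1.62 at day 4, while Pou5f1 was called lower at day 2 and Tdgf1 at day 4.

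Of 10 neural crest factors, 9 were in the table. Foxd3, which also serves pluripotent cells, was called higher in KO at day 4 (WT 15.5 ± 2.27 normalized counts and KO 424 ± 84.4, log2 fold change 1.24), and Ets1 (−1.20) and Msx1 (−0.81) were called lower. Sox1ot, a transcript listed beside Sox1, had at most 6 counts in any library, with 0 counts in both WT libraries and 18 in all over the KO libraries of day 4.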
